A study of Mus with 21 samples.

Results

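Mouse skin wounds filled with a weakly alkaline or a neutral hydrogel, both loaded with basic fibroblast growth factor (bFGF), were compared by RNA sequencing. The comparison used 6 of the 21 libraries of the study, chosen by their labels alone, and 15092 of the 18806 genes in the count tables passed the filter on low counts and were tested. The labels name the groups pH8.4_GelMA hydrogel_bFGF and pH7.4_GelMA hydrogel_bFGF, written here as 8.4-GelMA/bFGF and 7.4-GelMA/bFGF, with 3 libraries each. The wounds were full-thickness, circular and 8 mm wide, made in the back skin of wild-type female C57BL/6 mice of 8 weeks, and RNA was taken at day 4. GelMA is gelatin methacryloyl, a light-cured gelatin gel, here set to a pH of 6.4, 7.4 or 8.4. The other 15 libraries were a control group, 6.4-GelMA/bFGF, and the 3 pH values with acidic fibroblast growth factor (aFGF), with 3 libraries in each group. The labels say only control, and the paper's only group without growth factor received no hydrogel scaffold. The question was whether the growth factor acts differently in a neutral and a weakly alkaline wound. No library came from a wound with a hydrogel without growth factor, so the effect of pH on the wound and its effect on bFGF cannot be told apart. Each mouse carried wounds on both sides of the back, and the labels do not say which libraries share a mouse. The p-values therefore measure the spread between these libraries.

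A wound of this age is a mixture of tissues. Neutrophils and monocytes enter first, monocytes mature into macrophages, fibroblasts and myofibroblasts fill the defect with matrix and contract it, new vessels grow in, and keratinocytes divide and migrate from the edge before they stratify again. bFGF, encoded by Fgf2, is a heparin-binding ligand of FGF receptors that promotes the growth of fibroblasts, endothelial cells and smooth muscle cells. Smooth muscle cells form the walls of larger vessels and the hair erector muscles, and contract through smooth muscle myosin, which is switched on when myosin light chain kinase phosphorylates its light chain. In whole tissue, fewer cells of a type and less RNA per cell cannot be told apart.

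The expected skin and wound cell markers were present in all 6 libraries. Krt14, a basal keratinocyte keratin, was at 1143 to 2955 CPM (counts scaled to library size), Col1a1, a fibroblast collagen, at 9997 to 20420 CPM, and the macrophage marker Adgre1 at 175 to 287.8 CPM. Total counts were 34912711 to 37785975 per library. A pair of libraries stood apart. 7.4-GelMA/bFGF replicate 3 lay at 82.7 on the first principal component, which held 50.2% of the variance, with the other 5 libraries between -39.1 and 22.5. Its skeletal muscle genes summed to 421 CPM against 3905 to 20400 CPM in the other 5, its neutrophil genes to 17430 CPM against 5079 to 12260 CPM, and its adipocyte genes to 27660 CPM against 3175 to 19780 CPM. 8.4-GelMA/bFGF replicate 2 carried transcripts of ovary and oviduct, described at the end, and values without these libraries are given beside the results below.

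No gene passed the test between 8.4-GelMA/bFGF and 7.4-GelMA/bFGF. With edgeR's quasi-likelihood test, 0 of 15092 genes (0%) had a Benjamini-Hochberg adjusted p under 0.05 with a log2 fold change beyond 0.58, and the smallest adjusted p was 0.861. At an unadjusted p under 0.05 there were 864 genes (5.72%), of which 413 were higher at pH 8.4 (2.74%) and 451 lower (2.99%), where 754.6 genes would be expected if no gene differed. DESeq2, the other tool, called 28 of the 13179 genes to which it gave an adjusted p (0.212%), 12 higher (0.0911%) and 16 lower (0.121%). The libraries of the groups did not overlap for 780 genes higher at pH 8.4 (5.17%) and 989 genes lower (6.55%). Fold changes below are pH 8.4 against pH 7.4 on the log2 scale from edgeR, as are adjusted p unless DESeq2 is named. Their SE was derived as the size of the fold change divided by the square root of the F statistic of the test. Every gene at an unadjusted p under 0.05 had the same adjusted p of 0.861, and the genes are therefore given as values and not as changes. Without 8.4-GelMA/bFGF replicate 2, edgeR again called 0 genes, with 697 at an unadjusted p under 0.05 (4.57%), 336 higher (2.20%) and 361 lower (2.36%), and with 50.6% of fold changes above 0 and 49.4% below. With each library left out in turn, the share of all genes at an unadjusted p under 0.05 was 1.58% to 4.23% for higher and 1.64% to 4.53% for lower values, and counts of list members in those fits are to be read against it. Counts of list members over the 6 libraries are to be read against 2.74% for higher and 2.99% for lower values.

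**Figure D1:**
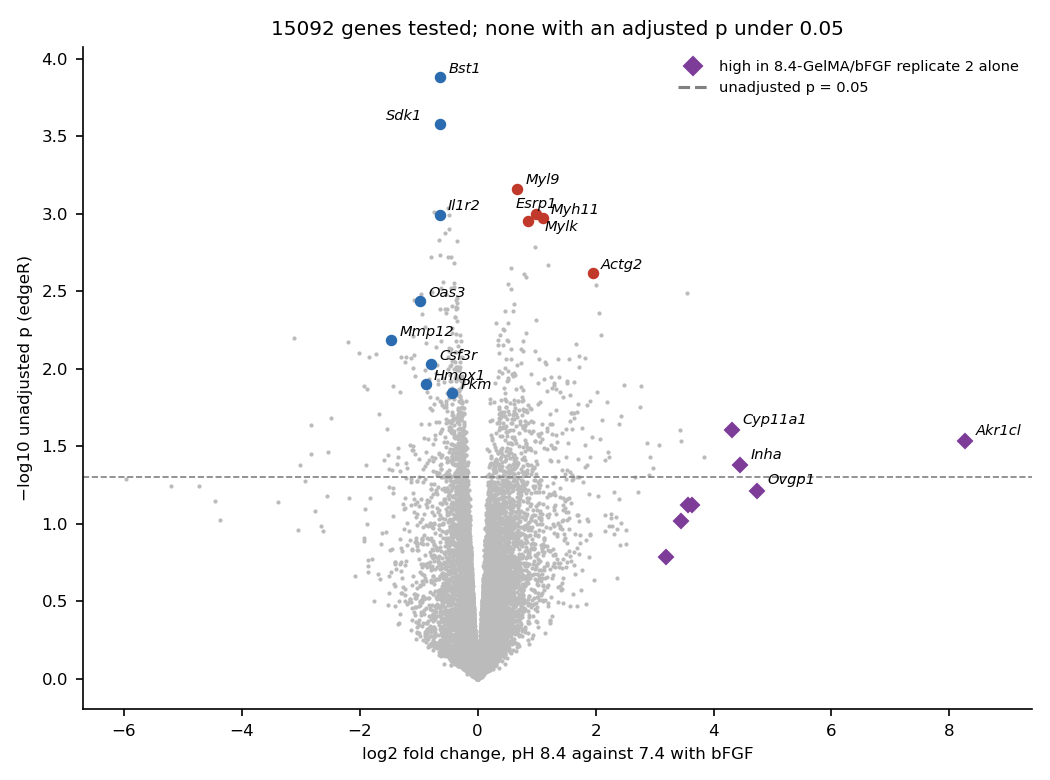
Each point is 1 of 15092 tested genes, with the log2 fold change of 8.4-GelMA/bFGF against 7.4-GelMA/bFGF on the x axis and the negative log10 of the unadjusted edgeR p on the y axis; the dashed line marks an unadjusted p of 0.05. Red and blue points are named genes higher and lower at pH 8.4, and purple diamonds are the 8 tested genes that were high in 8.4-GelMA/bFGF replicate 2 alone, 4 of which lie furthest to the right but not highest.

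The genes with the clearest higher values at pH 8.4 were those of smooth muscle contraction. Myh11, the smooth muscle myosin heavy chain, was at 33.6, 33.9 and 38.1 CPM in the 3 libraries of 7.4-GelMA/bFGF and at 88.3, 82.3 and 53.9 CPM in the 3 of 8.4-GelMA/bFGF. The group means were 35.2 ± 2.55 and 74.9 ± 18.4 CPM (SD, n = 3), a log2 fold change of 1.10 ± 0.19 (SE, adjusted p = 0.861). Every library at pH 8.4 was above the other 18 libraries of the study, where the highest was a control at 46.4 CPM. Mylk, the myosin light chain kinase, was at 41.9, 32.6 and 51.0 CPM at pH 7.4 and at 78.8, 87.7 and 80.1 CPM at pH 8.4 (0.99 ± 0.17). Here too the groups did not overlap, and the highest of the remaining 15 libraries, one of 6.4-GelMA/bFGF, was at 70.9 CPM.

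Actg2, the gamma smooth muscle actin, stood at 4.52, 4.03 and 6.55 CPM at pH 7.4 and at 30.7, 14.1 and 13.1 CPM at pH 8.4 (1.95 ± 0.40). Replicate 1 at pH 8.4 was far above the other two, yet all 3 exceeded the 12.8 CPM reached by the highest of the 15 libraries outside this comparison. Myl9, the regulatory light chain that the kinase phosphorylates, was at 49.5, 45.5 and 39.2 CPM at pH 7.4 and at 73.6, 65.1 and 72.8 CPM at pH 8.4 (0.67 ± 0.11). The controls spanned 36.5 to 76.2 CPM, so that its level at pH 8.4 lay within the control range. DESeq2 called Myh11 (adjusted p = 0.00179), Mylk, Actg2 and Myl9 (each adjusted p = 0.00186) as higher.

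Acta2, the alpha smooth muscle actin that marks smooth muscle cells and myofibroblasts and that the study also stained, was less separated. It was at 225, 199 and 186 CPM at pH 7.4 and at 261, 256 and 318 CPM at pH 8.4 (0.47 ± 0.13). The groups did not overlap, but the controls, at 165 to 318 CPM, spanned both. A further 3 genes of the same program were picked after their values had been seen. Cnn1, the thin-filament protein calponin, was at 4.32, 4.27 and 8.01 CPM against 35.2, 16.0 and 8.09 CPM at pH 8.4 (1.85 ± 0.57), and Lmod1, an actin nucleator of smooth muscle, was at 4.06 to 5.62 CPM against 6.76 to 8.89 CPM (0.78 ± 0.20). Tagln, the actin-binding protein transgelin, overlapped between the groups, at 91.9 to 145 CPM and 109 to 168 CPM (0.24 ± 0.22, adjusted p = 0.916).

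Of the 17 tested genes in the list of contractile and myofibroblast genes, 15 were higher at pH 8.4 and 2 lower. An unadjusted p under 0.05 was seen for 6, all higher, against 2.74% of all genes. The median log2 fold change of the list was 0.33, against a median of 0.00 over all 15092 genes (-1.52e-05), of which 50.0% were above 0 and 50.0% below. Without replicate 2 of 8.4-GelMA/bFGF, 17 of 17 were higher, with a median of 0.53 and 7 genes at an unadjusted p under 0.05. In that library the mean log2(CPM + 1) of the list was 6.22. The groups therefore overlapped in this mean, with 6.30 and 6.21 in replicates 1 and 2 of 7.4-GelMA/bFGF. Leaving out each library in turn gave medians of 0.24 to 0.53. Endothelial genes, which mark the vessels that smooth muscle surrounds, had a median of 0.27, with 22 of 27 higher and 1 at an unadjusted p under 0.05 in each direction. Their part in the contractile genes was not tested.

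**Figure D2:**
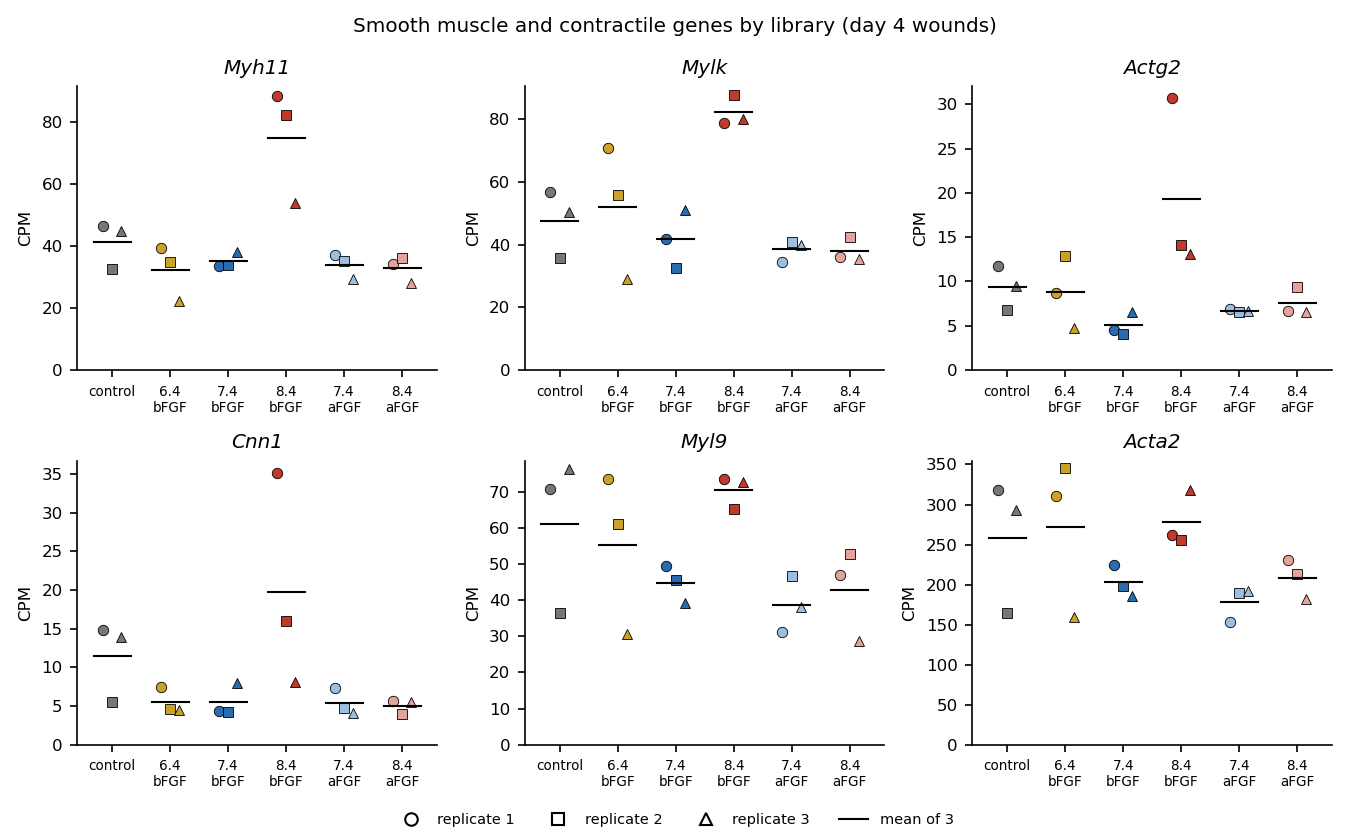
CPM of 6 smooth muscle and contractile genes in the libraries of 6 groups, with a separate y axis from 0 for each gene; symbols give the replicate and lines the mean of 3. For Myh11, Mylk and Actg2 the 3 libraries of 8.4-GelMA/bFGF are above every other library shown, while for Myl9 and Acta2 controls and 6.4-GelMA/bFGF reach similar levels, and for Cnn1 replicate 3 of 8.4-GelMA/bFGF is at the level of other groups.

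Genes of glycolysis and of the response to low oxygen were at lower values at pH 8.4. Cells that lack oxygen stabilise the transcription factor HIF-1, which raises glycolytic enzymes, glucose uptake and angiogenic peptides. Of 35 tested genes in this list 33 were lower and 2 higher, 14 had an unadjusted p under 0.05, all lower, against 2.99% of all genes, and the median was -0.32. The groups did not overlap for 16 of the 35, again all lower, against 6.55% of all genes. The mean log2(CPM + 1) of the list did overlap, at 7.29 in replicate 2 of 8.4-GelMA/bFGF and 7.24 in replicate 2 of 7.4-GelMA/bFGF. Without replicate 2 of 8.4-GelMA/bFGF the median was -0.42, with 15 genes at an unadjusted p under 0.05. The count was 7 to 9 when any of the other 5 was left out, and the median was then -0.37 to -0.23. Without 7.4-GelMA/bFGF replicate 3, 22 of the 35 were lower and 1 of the 13 higher genes had an unadjusted p under 0.05.

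Pkm, the pyruvate kinase that ends glycolysis, was at 2260, 2300 and 2241 CPM at pH 7.4 and at 1577, 1874 and 1543 CPM at pH 8.4 (-0.43 ± 0.13). The libraries at pH 7.4 were nearly equal and all above those at pH 8.4, but the 3 controls spanned 1045 to 2539 CPM. Pgk1, Eno1, Tpi1 and Ldha were chosen after their values had been seen, and are examples that add no support to the values of Pkm. Phosphoglycerate kinase Pgk1 was at 566 to 589 CPM against 409 to 491 CPM (-0.38 ± 0.11), enolase Eno1 at 961 to 1126 CPM against 664 to 843 CPM (-0.43 ± 0.14), and triosephosphate isomerase Tpi1 at 721 to 831 CPM against 510 to 641 CPM (-0.40 ± 0.13). Lactate dehydrogenase Ldha was at 1395, 1400 and 1704 CPM against 886, 1190 and 1318 CPM, without overlap (-0.40 ± 0.19, adjusted p = 0.864). Aldoa, the aldolase that is also abundant in skeletal muscle, was at 2508, 2459 and 1357 CPM against 2578, 1234 and 1262 CPM (-0.31 ± 0.38, adjusted p = 0.946), and its 3 high libraries were the 3 with the most skeletal muscle RNA.

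Among HIF targets outside glycolysis, Adm, the vasodilator peptide adrenomedullin, was at 69.1, 55.8 and 62.4 CPM at pH 7.4 and at 43.9, 24.0 and 33.1 CPM at pH 8.4 (-0.88 ± 0.22). The groups did not overlap and the controls ranged from 21.5 to 106 CPM. Egln1, the oxygen-sensing hydroxylase that marks HIF for destruction and is itself a HIF target, was at 145, 139 and 120 CPM and at 107, 107 and 98.3 CPM (-0.36 ± 0.10). Pdk1, which turns pyruvate away from the mitochondrion and was chosen after its values had been seen, was at 76.5 to 92.5 CPM and 60.6 to 70.9 CPM (-0.37 ± 0.11). Genes of the respiratory chain had a median of -0.06, with 30 of 35 lower and 0 at an unadjusted p under 0.05, and 0.01 without replicate 2. Neutrophils are glycolytic cells, and the neutrophil list had a median of -0.38 over the 6 libraries. Without 7.4-GelMA/bFGF replicate 3 the neutrophil median was 0.43, and that of the hypoxia and glycolysis list was -0.24. The part of neutrophils in the glycolytic genes was not tested.

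**Figure D3:**
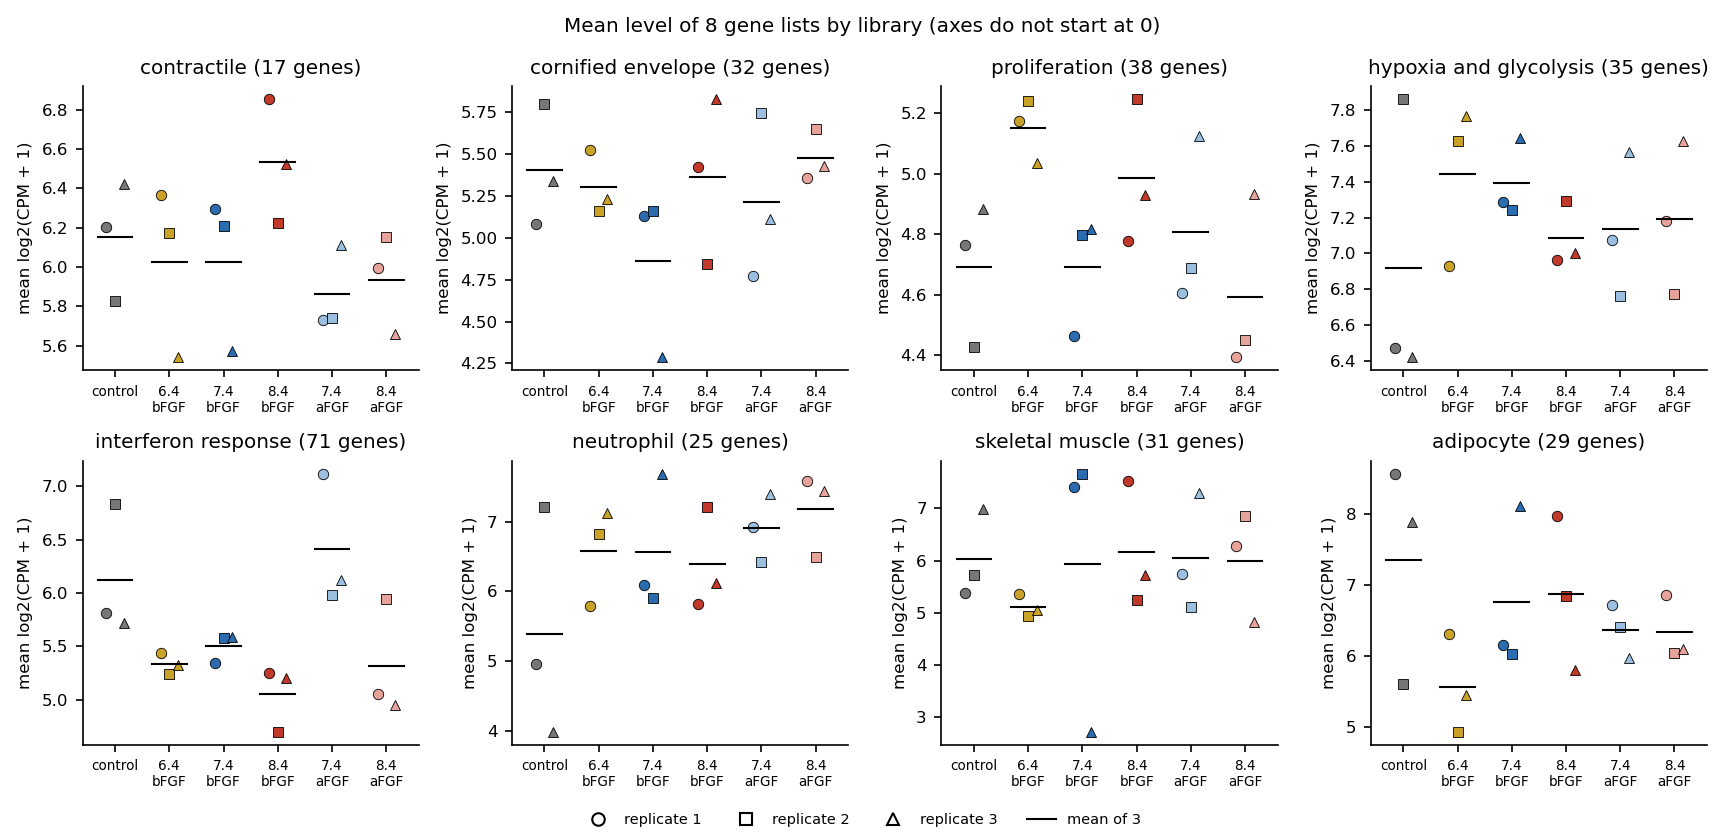
Mean log2(CPM + 1) of 8 gene lists in each library of 6 groups, with symbols for the replicate, lines for the mean of 3 and y axes that do not start at 0. For hypoxia and glycolysis and for interferon response the 8.4-GelMA/bFGF mean is below the 7.4-GelMA/bFGF mean, and controls span a wider range than either; in the neutrophil, skeletal muscle and adipocyte panels 7.4-GelMA/bFGF replicate 3 is far from its 2 fellow libraries.

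Interferon-stimulated genes, which cells switch on against viruses, were also at lower values at pH 8.4. Of 71 tested genes 69 were lower and 2 higher, with a median of -0.45. An unadjusted p under 0.05 was seen for 24, all lower, against 2.99% of all genes. Oas3, a sensor of double-stranded RNA, was at 45.1, 61.5 and 65.9 CPM at pH 7.4 and at 36.6, 27.5 and 23.2 CPM at pH 8.4 (-0.97 ± 0.22). Rsad2, the antiviral enzyme viperin, was at 35.8, 45.4 and 35.8 CPM and at 26.7, 18.8 and 22.5 CPM (-0.77 ± 0.17). The groups did not overlap for either gene, and all 3 libraries at pH 8.4 lay below the lowest control, at 39.9 CPM for Oas3 and 50.9 CPM for Rsad2. For Rsad2 the same held for the 3 libraries of 7.4-GelMA/bFGF and for those of 6.4-GelMA/bFGF, at 31.4 to 41.1 CPM.

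Rtp4, an interferon-induced chaperone of membrane receptors chosen after its values had been seen, was at 60.8 to 75.7 CPM and 29.7 to 50.1 CPM (-0.90 ± 0.22). The membrane protein Ifitm3, which blocks virus entry, was at 615 to 691 CPM and 384 to 582 CPM (-0.45 ± 0.17), and the secreted glycoprotein Lgals3bp overlapped by 1 library, at 366 to 493 CPM and 222 to 369 CPM (-0.54 ± 0.22, adjusted p = 0.861). DESeq2 called Oas3 (adjusted p = 0.0239), Rsad2 (adjusted p = 0.0295) and Rtp4 (adjusted p = 0.0491) as lower. Replicate 2 of 8.4-GelMA/bFGF, the library with ovary transcripts, had the lowest mean level of this list of the 6. Without it the median was -0.28, with 65 of 71 lower and 8 at an unadjusted p under 0.05. The number was 7 without 7.4-GelMA/bFGF replicate 2, where 2.04% of all genes were lower at an unadjusted p under 0.05, 12 without 8.4-GelMA/bFGF replicate 3 (1.95%), 16 without 7.4-GelMA/bFGF replicate 3 (3.67%) and 33 without 8.4-GelMA/bFGF replicate 1 (4.53%).

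Keratinocyte genes of the suprabasal and the basal layers stood at higher values at pH 8.4, while those of the migrating wound edge did not share a direction. In the list of the cornified envelope, the cross-linked shell of the outer epidermis, 30 of 32 genes were higher, with a median of 0.45. An unadjusted p under 0.05 was seen for 6, all higher, against 2.74% of all genes. Krtdap, a secreted protein of differentiating keratinocytes, was at 154, 152 and 114 CPM at pH 7.4 and at 205, 209 and 295 CPM at pH 8.4 (0.77 ± 0.19). Ivl, the envelope precursor involucrin, was at 7.92, 5.28 and 4.52 CPM and at 11.6, 9.07 and 31.1 CPM (1.56 ± 0.51). Neither gene overlapped between the groups, and replicate 3 at pH 8.4 was the highest for both. The mean log2(CPM + 1) of the cornified list did overlap, at 4.84 in replicate 2 of 8.4-GelMA/bFGF and 5.16 in replicate 2 of 7.4-GelMA/bFGF.

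Krt1, the keratin of the first suprabasal cells, did overlap, at 258, 229 and 103 CPM and at 422, 214 and 774 CPM (1.27 ± 0.54, adjusted p = 0.861). The basal layer gave a median of 0.32, with 14 of 15 genes higher and 1 at an unadjusted p under 0.05. That gene was Itga6, the integrin that anchors basal cells to the basement membrane, at 124, 117 and 115 CPM and at 148, 149 and 143 CPM (0.32 ± 0.08). Krt14 (0.43 ± 0.28, adjusted p = 0.879) and Krt5, its partner keratin, which was picked after its values had been seen (0.62 ± 0.29, adjusted p = 0.864), had larger errors. 7.4-GelMA/bFGF replicate 3 had the lowest level of the cornified list. Without it the median of that list was 0.24 and 3 genes were at an unadjusted p under 0.05, and without 8.4-GelMA/bFGF replicate 3 the median was 0.28 with 2 genes. The basal median was 0.20 without 7.4-GelMA/bFGF replicate 3. The mean log2(CPM + 1) of the basal list overlapped too, at 7.07 in replicate 2 of 8.4-GelMA/bFGF and 7.24 in replicate 2 of 7.4-GelMA/bFGF. Of 16 wound edge keratinocyte genes 7 were higher and 9 lower, with 1, lower, at an unadjusted p under 0.05 and a median of -0.08, or 0.09 without 7.4-GelMA/bFGF replicate 3 and 0.07 without 8.4-GelMA/bFGF replicate 1.

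A further 2 epithelial genes were among those with the smallest p in this direction. Esrp1, the splicing factor that keeps epithelial isoforms of FGF receptors, was at 13.4, 16.1 and 11.9 CPM at pH 7.4 and at 23.6, 22.9 and 27.6 CPM at pH 8.4 (0.85 ± 0.15). Sprr2a3, a small proline-rich envelope protein whose near-identical copies leave its count uncertain, was at 8.83 to 13.2 CPM and 19.4 to 31.2 CPM (1.19 ± 0.24). DESeq2 called both as higher, with an adjusted p of 0.00281 for Esrp1.

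Among the genes with the smallest p at lower values were surface molecules of neutrophils and monocytes. Bst1, a membrane enzyme of myeloid cells also known as CD157, was at 149, 158 and 159 CPM at pH 7.4 and at 95.6, 101 and 100.1 CPM at pH 8.4 (-0.64 ± 0.08, adjusted p = 0.861). Its unadjusted p was the smallest of the comparison, the libraries within each group were close, and DESeq2 gave an adjusted p of 9.31e-10. The controls spanned 51.9 to 188 CPM and so covered both groups. Il1r2, the decoy receptor that binds interleukin-1 without signalling, was at 207, 198 and 211 CPM and at 141, 137 and 113 CPM (-0.64 ± 0.11), against 30.7 to 292 CPM in controls.

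Selplg, the selectin ligand with which leukocytes roll on vessels, was at 284, 240 and 260 CPM and at 153, 190 and 159 CPM (-0.63 ± 0.12). Csf3r, the receptor for the neutrophil growth factor G-CSF, was at 566, 425 and 555 CPM and at 235, 377 and 271 CPM (-0.80 ± 0.21). Spi1, the transcription factor PU.1 of the myeloid lineage, was at 224, 220 and 213 CPM and at 165, 149 and 152 CPM (-0.48 ± 0.08). All 3 libraries at pH 8.4 were below the lowest control at 171 CPM, but replicate 1 of 6.4-GelMA/bFGF was lower still, at 139 CPM. None of these genes overlapped between the compared groups. Hk3, the hexokinase of myeloid cells, was at 83.3 to 103 CPM and 46.3 to 62.3 CPM (-0.80 ± 0.16), and Sdk1, an adhesion molecule of the immunoglobulin family, at 75.3 to 85.4 CPM and 48.9 to 55.1 CPM (-0.63 ± 0.09). Lilra6, a leukocyte receptor from a family with similar copies, was at 15.6 to 17.7 CPM and 8.86 to 10.6 CPM (-0.74 ± 0.13). DESeq2 called Bst1, Il1r2, Selplg, Hk3, Sdk1 and Lilra6 as lower.

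The neutrophil list as a whole did not keep a direction. Its median was -0.38, with 21 of 25 genes lower and 3 at an unadjusted p under 0.05, but 0.43 without 7.4-GelMA/bFGF replicate 3 and -0.83 without 8.4-GelMA/bFGF replicate 2. Those were the libraries richest in neutrophil RNA in their groups, at 17430 and 12260 CPM against 5079 to 7107 CPM in the other 4. Csf3r, by contrast, was lower in all 3 libraries at pH 8.4 than in any at pH 7.4. Its log2 fold change was -1.01 without 8.4-GelMA/bFGF replicate 2, and -1.01 to -0.66 with each library left out in turn.

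Macrophage genes were at lower values, with 16 of 17 lower, 3 at an unadjusted p under 0.05 and a median of -0.25. Genes of alternatively activated (M2) macrophages likewise had 18 of 19 lower, 2 at an unadjusted p under 0.05 and a median of -0.41. Of all genes 2.99% were lower at this p. Mmp12, the macrophage elastase, was at 224, 345 and 154 CPM at pH 7.4 and at 111, 55.6 and 91.9 CPM at pH 8.4 (-1.47 ± 0.37), and DESeq2 called it as lower (adjusted p = 0.0168). Clec7a, the receptor dectin-1 for fungal glucans, was at 87.1, 92.9 and 159 CPM and at 41.6, 54.2 and 63.7 CPM (-1.08 ± 0.28). The groups did not overlap for either gene.

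Ccr2, which brings monocytes out of the blood, was at 189, 174 and 172 CPM and at 130, 150 and 145 CPM (-0.32 ± 0.09). The high-affinity antibody receptor Fcgr1 had a log2 fold change of -0.54 ± 0.18. Of the macrophage markers that the study stained, Mrc1, the mannose receptor CD206, was at 999, 859 and 627 CPM and at 1034, 396 and 537 CPM (-0.32 ± 0.38, adjusted p = 0.941), and Ccr7, a chemokine receptor used as an M1 marker, was at 9.46, 16.0 and 16.1 CPM and at 6.28, 5.89 and 11.6 CPM (-0.79 ± 0.34, adjusted p = 0.862). Both overlapped between the groups. Adgre1, the general macrophage marker F4/80, was at 264, 288 and 222 CPM and at 270, 175 and 263 CPM (-0.11 ± 0.20, adjusted p = 0.963), and its log2 fold change was 0.06 without replicate 2. Without that library the medians were -0.08 for the macrophage and -0.23 for the M2 list, and without 8.4-GelMA/bFGF replicate 1 they were -0.48 and -0.76. Genes of classically activated (M1) macrophages had a median of -0.27, with 13 of 17 lower and 1 at an unadjusted p under 0.05 in each direction. This direction turned on 7.4-GelMA/bFGF replicate 3, without which the median was 0.44, with 9 of 17 higher and 4 of them at an unadjusted p under 0.05.

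Genes of cell division stood slightly higher at pH 8.4. All 38 tested genes of the proliferation list had a positive fold change, with a median of 0.36, and 3 had an unadjusted p under 0.05, against 2.74% of all genes. Bub1b, the spindle checkpoint kinase, was at 16.0, 19.7 and 19.2 CPM at pH 7.4 and at 23.4, 38.4 and 25.9 CPM at pH 8.4 (0.69 ± 0.21). Prc1, which bundles microtubules of the dividing cell, was at 23.4 to 34.0 CPM and 34.7 to 54.5 CPM (0.59 ± 0.21). Both had their highest value in replicate 2. Mki67, the common mark of cycling cells, which was chosen after its values had been seen, was at 57.7, 83.9 and 93.9 CPM and at 89.3, 126 and 112 CPM (0.49 ± 0.21, adjusted p = 0.862), and Pcna, the clamp of DNA replication, had a log2 fold change of 0.03 ± 0.09. Without replicate 2, 30 of the 38 were higher, with a median of 0.19. The number of genes at an unadjusted p under 0.05 ran from 0 without 7.4-GelMA/bFGF replicate 1 to 13 without 7.4-GelMA/bFGF replicate 3, and was 8 without 8.4-GelMA/bFGF replicate 1 and 1 without either of the others at pH 8.4.

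Of the Wnt pathway, 31 of 38 genes were higher, with a median of 0.32. An unadjusted p under 0.05 was seen for 3, all higher, against 2.74% of all genes. The median was 0.20 without 7.4-GelMA/bFGF replicate 3 and 0.16, with 25 of 38 higher, without 8.4-GelMA/bFGF replicate 3. Axin2, a feedback inhibitor induced by beta-catenin, was at 6.34, 6.79 and 7.06 CPM at pH 7.4 and at 11.1, 9.33 and 10.4 CPM at pH 8.4 (0.62 ± 0.14), and Nkd2, which also dampens Wnt signalling, at 5.78 to 9.38 CPM and 10.7 to 11.9 CPM (0.66 ± 0.21). Neither overlapped between the groups, and the controls, at 9.00 to 17.6 CPM for Axin2, held the level seen at pH 8.4. The FGF system itself showed no common direction. Of 28 ligands, receptors and binding partners 14 were higher and 14 lower, with a median of 0.01, and of 25 targets of FGF signalling through the kinase ERK 11 were higher and 14 lower, with a median of -0.05. The 2 genes of the first list at an unadjusted p under 0.05 were Fgfbp1, the carrier that frees FGFs from matrix, at 26.7, 40.6 and 20.1 CPM and at 41.9, 54.7 and 51.2 CPM (0.77 ± 0.26), and Fgfr3, a receptor of keratinocytes, at 11.6, 13.9 and 6.52 CPM and at 17.9, 18.8 and 16.1 CPM (0.74 ± 0.28).

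Il17rd, a feedback inhibitor of FGF signalling, was the 1 ERK target at an unadjusted p under 0.05 (0.50 ± 0.17). The endogenous gene for bFGF, Fgf2, was low, at 5.06, 4.66 and 5.69 CPM and at 4.72, 2.89 and 2.99 CPM (-0.53 ± 0.26, adjusted p = 0.864), and Fgf1, which encodes aFGF, was at 15.9, 16.9 and 6.00 CPM and at 11.3, 19.7 and 6.09 CPM (-0.05 ± 0.53). Protein released from the gel does not enter these counts.

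Genes that sense or move protons were near the median of all genes. Of 16 proton-sensing receptors and channels 8 were higher and 8 lower, 0 had an unadjusted p under 0.05, and the median was 0.01. Of 46 genes of acid and base transport 19 were higher and 27 lower, with a median of -0.03, 1 higher and 2 lower at an unadjusted p under 0.05. Tcirg1, a subunit of the proton pump of lysosomes and osteoclasts, was at 146, 136 and 120 CPM at pH 7.4 and at 105, 97.3 and 108 CPM at pH 8.4 (-0.36 ± 0.10), without overlap. Car12, a carbonic anhydrase of the cell surface, was at 20.5, 26.9 and 15.0 CPM and at 25.6, 37.5 and 37.2 CPM (0.70 ± 0.25), with overlap.

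Of the complement and coagulation genes 28 of 37 were lower, 5 of them at an unadjusted p under 0.05, against 2.99% of all genes. The median of this list was -0.25, or -0.07 without replicate 2 and -0.39 without replicate 1 of 8.4-GelMA/bFGF. C3, the central complement protein, was at 4510, 4737 and 4865 CPM at pH 7.4 and at 3882, 1747 and 2549 CPM at pH 8.4 (-0.78 ± 0.29), with its lowest value in replicate 2. The receptor C5ar1, which draws myeloid cells to sites of complement activation, was at 196, 179 and 173 CPM and at 145, 137 and 120 CPM (-0.44 ± 0.11), and Procr, the receptor of the anticoagulant protein C, gave -0.37 ± 0.08. Matrix genes of fibroblasts had a median of 0.07, with 18 of 30 higher and 0 at an unadjusted p under 0.05, and of -0.10, with 5 of 30 higher, without 8.4-GelMA/bFGF replicate 3. Col1a1 was at 10540, 11770 and 12100 CPM and at 9997, 11970 and 20420 CPM (0.31 ± 0.30), and Col3a1 gave 0.17 ± 0.26. The vessel marker Pecam1, stained in the study as CD31, was at 205, 160 and 322 CPM and at 200.1, 279 and 349 CPM (0.28 ± 0.32, adjusted p = 0.940), so that both groups overlapped. The endothelial list had a median of 0.59 without 7.4-GelMA/bFGF replicate 3, where 12 genes were higher at an unadjusted p under 0.05, against 1 with it. The share of all genes that were higher at this p was 3.97% without that library, against 2.74% with it. The median was 0.08 without 7.4-GelMA/bFGF replicate 2 and 0.10 without 8.4-GelMA/bFGF replicate 3.

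The step from pH 7.4 to pH 8.4 was also measured with aFGF, in 6 other libraries. There edgeR called 0 of 14968 genes (0%), with 450 at an unadjusted p under 0.05 (3.01%), 0.788% higher and 2.22% lower, and DESeq2 called 13. Of all genes 49.8% were higher and 50.2% lower with aFGF. The test of the difference between the steps, the interaction of growth factor and pH over the 12 libraries, called 0 of 15502 genes (0%), with a smallest adjusted p of 0.993 and 734 at an unadjusted p under 0.05 (4.73%), and DESeq2 called 4. The contractile genes Myh11 (-0.05), Mylk (-0.02) and Actg2 (0.17) had log2 fold changes near 0 with aFGF, and each had an unadjusted p under 0.05 in the interaction (adjusted p = 0.993). Myl9 was at 0.14 and Acta2 at 0.23 with aFGF.

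Interferon genes were at lower values at pH 8.4 with either growth factor. With aFGF 0 of the list were higher and 32 had an unadjusted p under 0.05, with a median of -0.88. Rsad2 was at -0.79 and Oas3 at -0.65 with aFGF. The aFGF libraries were unequal for this list, which summed to 14560, 7768 and 7822 CPM at pH 7.4 and to 4719, 7765 and 3936 CPM at pH 8.4, so that replicate 1 of 7.4-GelMA/aFGF stood far above the rest and replicate 2 of 8.4-GelMA/aFGF was at the level of the other libraries at pH 7.4. The hypoxia and glycolysis list had a median of 0.05 with aFGF, where 24 of 35 were higher and 1, lower, had an unadjusted p under 0.05. Pkm was at 0.02 and Adm at 0.45, and Adm had an unadjusted p under 0.05 in the interaction. The proliferation list had a median of -0.24 with aFGF, 5 of 38 were higher, and 10 of 38 had an unadjusted p under 0.05 in the interaction, against 4.73% of all genes. Both Mki67, at a log2 fold change of -0.61 with aFGF, and Bub1b, at -0.43, were among the 10. Medians with aFGF were 0.34 for the neutrophil, 0.16 for the macrophage and 0.24 for the M2 list, of the opposite sign to those with bFGF. For the neutrophil list this turned on 7.4-GelMA/bFGF replicate 3, without which the bFGF median was 0.43. Il1r2 was at 0.24, Spi1 at 0.17 and Bst1 at -0.04 with aFGF, and all 3 had an unadjusted p under 0.05 in the interaction. No gene passed edgeR's test of the interaction, and the 4 genes that DESeq2 called included Pdpn and Hmox1.

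**Figure D4:**
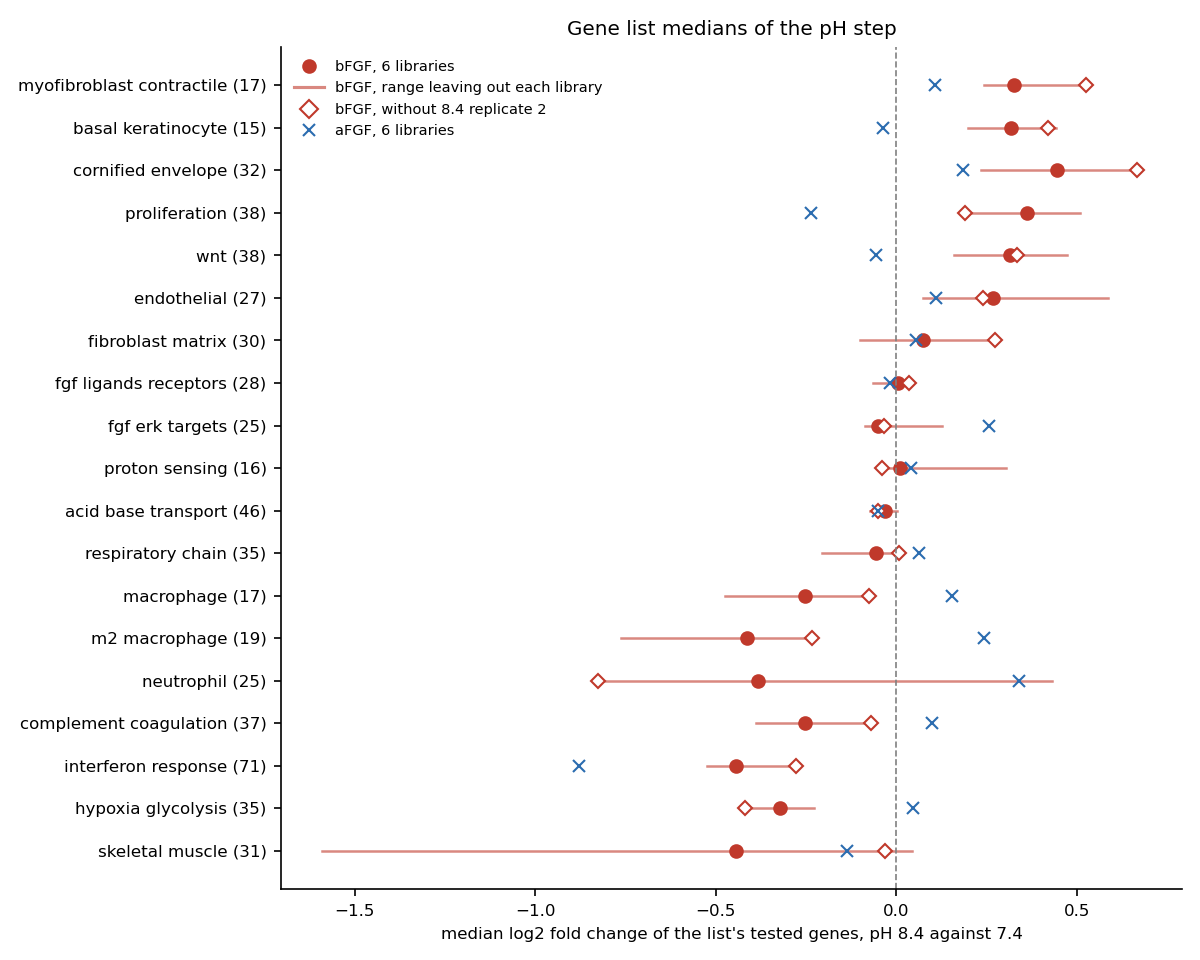
Median log2 fold change of pH 8.4 against 7.4 over the tested genes of 19 lists, with the number of genes in parentheses. Red points are the 6 bFGF libraries, red lines the range when each library is left out, open diamonds the values without 8.4-GelMA/bFGF replicate 2 and blue crosses the 6 aFGF libraries; the long neutrophil and skeletal muscle lines cross 0, as do short lines of lists with medians near 0, and the interferon cross lies furthest to the left of the crosses.

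Replicate 2 of 8.4-GelMA/bFGF held transcripts at levels that no other library came near. Genes counted here were above 0.5 CPM in that library and more than 8 times the next of the 21 libraries with 0.05 CPM added. There were 95 such genes, of which 37 are in lists of ovary or oviduct genes that were written with these data known, so that the overlap is a description. Together they made up 0.153% of its unscaled counts. In CPM, which were also normalized between libraries, they summed to 1379 against at most 16.1 in any other library. The highest was Hsd3b1, a dehydrogenase that makes progesterone and its relatives in steroid-forming cells, at 398 CPM (15387 counts) against 0.237 CPM in the next library. By the deposited FPKM it ranked 303 among the genes of that library.

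The genes that followed belong to several cell types of the ovary and oviduct. Cyp11a1, the enzyme that starts steroid synthesis from cholesterol, was at 144 CPM against 8.86 CPM, and Akr1cl, an aldo-keto reductase, at 189 CPM against 0.728 CPM. Inha, the alpha subunit of inhibin from granulosa cells, was at 161 CPM against 3.96 CPM, and the granulosa genes Amh, the anti-Müllerian hormone, and Foxl2, a transcription factor of ovarian identity, were at 23.5 and 17.6 CPM. The steroidogenic factor Nr5a1 was at 38.7 CPM, the transcription factor Gata4 at 25.5 CPM, and Hsd17b1, which makes estradiol, at 17.3 CPM. Ovgp1, the glycoprotein secreted by the oviduct, was at 80.2 CPM against 1.98 CPM.

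Replicate 2 was the highest of the 21 libraries for 16 of 21 granulosa and theca genes, 23 of 26 oocyte genes, 16 of 22 oviduct genes and 8 of 18 luteal and steroidogenic genes, but for 1 of 12 adrenal genes. The adrenal enzymes Cyp11b1 and Cyp21a1 had 0 counts in it. The 3 libraries of 7.4-GelMA/bFGF had 0 genes high in 1 library alone, replicates 1 and 3 of 8.4-GelMA/bFGF had 1 and 0, and elsewhere 7.4-GelMA/aFGF replicate 3 had 24 and 8.4-GelMA/aFGF replicate 2 had 28, with at most 2 in any other.

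Only 8 of the 95 genes passed the filter on low counts. Of these, Akr1cl, Cyp11a1 and Inha were among the genes higher at an unadjusted p under 0.05. Without replicate 2 their log2 fold changes were 0.96, 1.18 and 0.20. Ovary and oviduct walls contain smooth muscle, and the part of these tissues in the contractile genes of replicate 2 was not tested. In replicates 1 and 3 of 8.4-GelMA/bFGF, Myh11 was at 88.3 and 53.9 CPM, Mylk at 78.8 and 80.1 CPM and Actg2 at 30.7 and 13.1 CPM, all above the 3 libraries of 7.4-GelMA/bFGF.

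**Figure D5:**
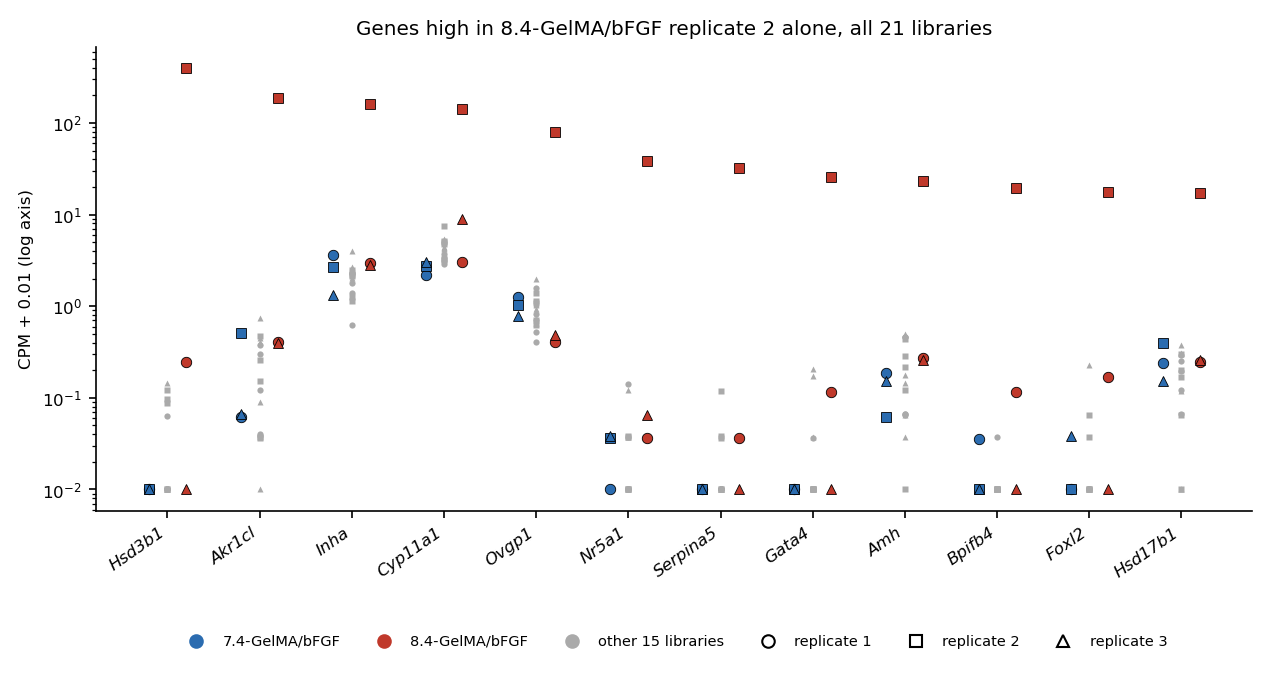
CPM plus 0.01 on a log axis for the 12 genes of highest CPM among those high in 8.4-GelMA/bFGF replicate 2 alone, in all 21 libraries; points at the bottom are libraries with 0 counts. The red squares of replicate 2 are between 17.3 and 398 CPM and far above every other library, including replicates 1 and 3 of the same group.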

How the data were processed

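Poly(A) RNA was sequenced with a stranded TruSeq mRNA kit. For each library the authors deposited a table of unnormalized counts by gene and the matching FPKM values. The submitters' processing notes name the mouse build GRCm39. The aligner, counter and annotation are not given in the sources used here, and neither is the test. The 21 libraries held 34362558 to 37817833 counts, and a count of 0 allows up to 3 counts of the total (counting error only). Libraries of a group differed beyond counting noise (chi-square per degree of freedom 17.1 to 264), so none was a copy of another. The lowest value was that of replicates 1 and 2 of 7.4-GelMA/bFGF, and every other pair was at 95.8 or more. Each library was treated as a replicate, although this check cannot show that libraries came from different mice.

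Counts were tested in R 4.3.3 with edgeR 4.0.16 (TMM, default filter, quasi-likelihood test on the 6 libraries, limma 3.58.1 loaded with it). CPM were scaled by TMM over 21 libraries. A prior count of 2 was used only for the principal components and the check of replicate numbers, and fold changes kept edgeR's default. A call required both a log2 fold change past 0.58 in size and an adjusted p below 0.05. The deposited FPKM served only to rank Hsd3b1. Alternatives were DESeq2 1.42.0 in 2 settings, other normalization, filters, dispersion and sample sets, a replicate block and leaving out each library. The newer edgeR method, DESeq2 and list counts with libraries left out, and the fit without 7.4-GelMA/bFGF replicate 3 and 8.4-GelMA/bFGF replicate 2 together, were added after seeing the data. The steps were also run on simulated counts, in which no library stood apart as some did here, so that run checks the code only.

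The compared groups and gene lists were chosen with earlier results of these data known. The naming rule took called genes. In their absence it took up to 15 genes per direction of smallest p without overlap and with under 4-fold spread in the higher group. It added per list the 2 most abundant members and the 2 of smallest p, the stained and growth factor genes, and the 12 highest genes of replicate 2. Cnn1, Lmod1, Tagln, Pgk1, Eno1, Tpi1, Pdk1, Ldha, Mki67, Krt5 and Rtp4 fall outside it.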

Additional observations from a re-analysis of the deposited data

Results flagged for a closer look

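For 3 of the genes picked by the naming rule, the step from pH 7.4 to pH 8.4 went in opposite directions with the 2 growth factors. All 3 libraries of each pH were apart from those of the other. The naming rule favoured genes of small p or without overlap with bFGF. Of all tested genes, 11.7% did not overlap between the bFGF groups in either direction. The share of all tested genes with opposite directions was not counted, so the 3 genes are given as a description. Genes outside the rule showed opposite directions too, among them Wfdc17 (log2 fold change -0.625 with bFGF and 0.712 with aFGF) and Erbb3 (0.248 and -0.446). None of these genes passed the edgeR test of the interaction. DESeq2 called Pdpn (adjusted p = 0.00569), Hmox1 and Wfdc17 (each adjusted p = 0.0442), but not Hspa5 (adjusted p = 0.612). Hmox1, the heme-degrading enzyme heme oxygenase 1, was at 1448, 894 and 759 CPM in 7.4-GelMA/bFGF and at 614, 526 and 529 CPM in 8.4-GelMA/bFGF, but its mean with aFGF was 1154 CPM at pH 7.4 and 2028 CPM at pH 8.4. The difference between the steps was -1.70 on the log2 scale (edgeR, adjusted p = 0.993). Pdpn, the membrane glycoprotein podoplanin of lymphatic vessels and migrating keratinocytes, was at 204, 249 and 232 CPM and at 189, 182 and 168 CPM with bFGF, against means of 248 ± 16.6 and 327 ± 6.4 CPM (SD, n = 3) with aFGF, and the difference was -0.74 (edgeR, adjusted p = 0.993). Hspa5, the chaperone BiP of the endoplasmic reticulum, was at 839, 844 and 916 CPM and at 782, 823 and 769 CPM with bFGF, against means of 936 and 1084 CPM with aFGF, and the difference was -0.34 (edgeR, adjusted p = 0.993).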

How the results depend on the processing

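Every edgeR alternative run on the bFGF comparison called 0 genes, with 495 to 1344 at an unadjusted p under 0.05 when 1 library was left out and 897 by the newer edgeR method. DESeq2 called 28 genes with default settings and 41 without either outlier handling by Cook's distance or independent filtering, against 0 by edgeR. For the aFGF step it called 13 and 19, and for the interaction 4 and 15. With 1 library left out, DESeq2 called 37 to 222, with 222 without 8.4-GelMA/bFGF replicate 1, 123 without 7.4-GelMA/bFGF replicate 3 and 76 without 8.4-GelMA/bFGF replicate 2, and 13 to 27 of the 28 were among them. The cause was not tested.

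Replicates share numbers in the labels, but libraries of the same number did not deviate together (r = 0.283, -0.334 and -0.01). The fit with the replicate number as a block called 0 genes, with 663 at an unadjusted p under 0.05.

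Of 75 genes whose fold changes were recomputed, 5 changed sign when 1 library, or 7.4-GelMA/bFGF replicate 3 with 8.4-GelMA/bFGF replicate 2, was left out: Adgre1 (-0.222 to 0.063), Pcna (-0.033 to 0.083), Fgf1 (-0.896 to 0.272), Col1a1 (-0.053 to 0.51) and Col3a1 (-0.102 to 0.301). Of 45 list medians, 27 moved by more than the spread between libraries in at least 1 setting. With a library left out, sign changes included the neutrophil (-0.83 to 0.43), M1 (-0.53 to 0.44), skeletal muscle (-1.59 to 0.04), fibroblast matrix (-0.10 to 0.27) and wound edge keratinocyte (-0.16 to 0.09) medians, and those near 0 of the FGF, ERK target, proton, acid and base, and respiratory chain lists. With 3 libraries a group, an exact permutation test could not go below p = 0.1. Several named genes, among them Actg2, Cnn1, Lmod1, Ivl, Axin2, Nkd2, Ccr7, Lilra6, Fgf1, Fgf2 and Ecrg4, lay under 10 CPM in at least 1 library.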

Other observations

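Counted over the 15092 genes tested with bFGF, the 3 libraries of 8.4-GelMA/bFGF were all above the other 18 libraries for 32 genes (0.212%) and all below them for 31 genes (0.205%). For the other 6 groups these numbers were 6 to 37 and 17 to 56, so the group did not stand apart by their number. This count was made after the data had been seen. By edgeR's p the first 4 of the 32 were Mylk, Myh11, Actg2 and Lmod1. Among the 31 were the interferon genes Rsad2, Rtp4 and Adar, an RNA-editing enzyme, and St6galnac4, a sialyltransferase, at 47.3, 47.8 and 42.0 CPM at pH 7.4 and at 32.6, 33.1 and 30.7 CPM at pH 8.4 (log2 fold change -0.50 ± 0.08, SE).

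Ecrg4, a secreted peptide precursor, had a log2 fold change of 2.01 ± 0.42 (SE), at 1.35, 2.34 and 1.37 CPM at pH 7.4 and at 5.56, 10.4 and 4.29 CPM at pH 8.4, with the highest value in the library that carried ovary transcripts. Idi1, an enzyme of cholesterol synthesis, was at 15.5, 17.9 and 14.7 CPM and at 25.3, 21.9 and 23.3 CPM (0.56 ± 0.12). Srxn1, which repairs oxidised peroxiredoxins, was at 82.7, 69.7 and 68.4 CPM and at 48.5, 59.6 and 47.9 CPM (-0.49 ± 0.13). The groups did not overlap for any of the 3 genes, and none passed the edgeR test after adjustment.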
